A study of Homo sapiens with 12 samples.

Results

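The 10 genes described here encode enzymes of pyrimidine ribonucleotide supply: CAD, DHODH and UMPS (synthesis of UMP from small precursors), CTPS1 and CTPS2 (CTP from UTP), UCK1, UCK2 and UPP1 (handling of free uridine and cytidine), and CMPK1 and NME1 (kinases that raise nucleotides to the triphosphate level). They were chosen by symbol from a table of 61541 genes, with earlier results of these data known; the rule itself uses no measured value. All 10 passed the filter on low counts, which left 16768 genes for testing. RNA was sequenced from cells labelled A549, an established human line of lung adenocarcinoma origin, taken 14 days after transduction. Control cells carried Cas9 with a non-targeting guide (gNTC1), and knockout cells carried Cas9 with a guide to TYMS, the gene of thymidylate synthase (TS-KO). Each kind of cell was kept by itself or co-cultured, giving 4 groups of 3 libraries, and no drug was given. Parental A549 was the partner of the knockout cells in co-culture, beside which their proliferation was described as restored, while the labels name no partner for the co-cultured control. The labels also do not say whether partner cells were removed, whether the knockout was 1 clone, or whether replicates were separate cultures, so p-values measure only the spread between these samples.

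Cells make UMP either from glutamine, bicarbonate and aspartate or by phosphorylating uridine taken from outside. CAD carries out the opening steps, DHODH oxidises dihydroorotate at the inner mitochondrial membrane, and UMPS joins orotate to ribose phosphate and decarboxylates the product. UMP is raised to UTP, CTP synthase aminates UTP to CTP, and both feed RNA, sugar nucleotides and phospholipid precursors. Reduced pyrimidine nucleotides also lead to dUMP, the substrate of thymidylate synthase.

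Library totals ranged from 14921371 to 35723762 counts, and the members held between 259 and 10278 counts in a library. TYMS had 95.4 ± 5.27 CPM (counts scaled to library size by the trimmed mean of M-values, TMM; mean ± SD, n = 3) in lone control libraries, and 93.4 ± 2.67 CPM in co-cultured ones. Lone knockout libraries had 20.9 ± 0.547 CPM and co-cultured ones 11.05 ± 0.360 CPM. Genes that mark the cell line differed between the labels. A549 is known for having lost the 9p21 genes CDKN2A, CDKN2B and MTAP, yet in the libraries labelled control CDKN2A stood at 99.3 ± 22.9 CPM alone and 72.5 ± 15.5 CPM co-cultured, and MTAP at 59.5 ± 18.2 and 59.8 ± 5.74 CPM. The knockout libraries held 0 CDKN2A counts alone and 4 in co-culture, with MTAP at 0.582 ± 0.0568 and 0.471 ± 0.163 CPM. The epithelial gene EPCAM stood at 104 and 101 CPM in the control groups against 0.620 and 0.322 CPM in the knockout groups. The other epithelial markers were also lower in the knockout groups, though still detected. KRT8 stood at 7168 and 6136 CPM in the control groups against 3726 and 3111 CPM in the knockout groups. KRT18 stood at 3056 and 2800 CPM against 2262 and 1592 CPM. KRT19 stood at 1740 and 1490 CPM against 255 and 446 CPM, and CDH1 at 55.8 and 58.2 CPM against 17.5 and 23.9 CPM. The sum of 5 epithelial markers was 9302 to 15248 CPM in control and 3962 to 7051 CPM in knockout libraries. The sum of 6 NRF2 targets, high in A549, was 3902 to 5585 CPM in control and 7455 to 10328 CPM in knockout libraries. Of these, GPX2 was not higher, at 179 and 156 CPM against 143 and 153 CPM. Fibroblast, leukocyte and endothelial markers were low throughout, with summed levels of 10.9 to 24.5, 1.69 to 7.99 and 0.0847 to 2.73 CPM, and CD3E had no count. Differences between libraries labelled knockout and control therefore cannot be told apart from differences between the cells that carry those labels, whereas each co-culture comparison lies within 1 label. In every group the libraries also differed in how counts ran with transcript GC content. Spearman's rho between a library's deviation from its group mean and GC ran from -0.619 to 0.587 in the lone control, -0.472 to 0.575 in the co-cultured control, -0.547 to 0.532 in the lone knockout and -0.757 to 0.736 in the co-cultured knockout, where deviations from a mean of 3 must differ in sign.

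Promoter windows for all 10 members were found in the RefSeq table (GRCh38.p14), 14 windows in all, each from 250 bases before to 50 after a transcript start. They were searched for the E-box CACGTG, the cAMP response element TGACGTCA and the NRF1 core motif, all of which read alike on both strands and did not overlap in these windows. The 3 windows that held a match are shown, without regard to whether the member differed between knockout and control. No window of CTPS1 or CAD, which also differed, held a match. Capitals mark the motif, with flanking bases in lower case, 5′ to 3′ on the plus strand.

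UMPS, chr3:124730394-124730423, motif at -47 from the RefSeq start: gacttcgcgggTGACGTCAtcggggcgccg
DHODH, chr16:72008574-72008601, motif at -159 from the RefSeq start: ccgctactgcgCACGTGcacccaaccag
NME1, chr17:51153582-51153608, motif at 34 bases past the RefSeq start: gtgctgcgaacCACGTGggtcccgggc

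In the GENCODE 29 annotation the UMPS and NME1 motifs lie inside the first exon of the gene, and the DHODH motif straddles the gene's annotated start. The E-box was in 2 of 14 member windows and in 7.26% of all 35116 windows, the cAMP response element in 1 of 14 and 1.85%, and the NRF1 core in 0 of 14 and 1.24%. A match describes the letters only.

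In the cells grown alone, CTPS1 was 2.58-fold higher in the knockout than in the control, and UMPS was 1.32-fold higher. CAD, DHODH and NME1 were 1.34, 1.40 and 1.65-fold lower. Within the knockout label, co-culture changed none of the 10 genes at the threshold used, an adjusted p under 0.05. The highest CTPS1 value of any control library was 107 CPM, and the lowest of any knockout library was 191 CPM.

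Set per kilobase of exon, so that genes can be compared, the order of levels in the lone control ran from NME1 (84.7 ± 21.6 CPM per kb) and CAD (47.9 ± 6.21) through UCK1 (26.4 ± 5.45), UCK2 (21.9 ± 1.58) and UPP1 (13.8 ± 3.49). CTPS1 (7.71 ± 0.174 CPM per kb), CMPK1 (7.05 ± 2.47), UMPS (5.86 ± 0.554), DHODH (4.81 ± 0.514) and CTPS2 (2.93 ± 0.323) followed. The libraries of UCK1 and UCK2 overlapped on this scale, as did those of CTPS1 with CMPK1 and of CMPK1 with UMPS, and the other neighbours did not. In the lone knockout CTPS1 stood at 19.9 ± 1.22 CPM per kb, within the range of UCK1 (16.3 to 23.5), while CTPS2 stood at 3.95 ± 0.629 and DHODH at 3.43 ± 0.314. CTPS2 and DHODH overlapped there. These orders depend on the exon lengths used. Before division by length, UCK2 stood above UCK1 in the lone control, at means of 155 and 71.0 CPM.

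**Figure D1:**
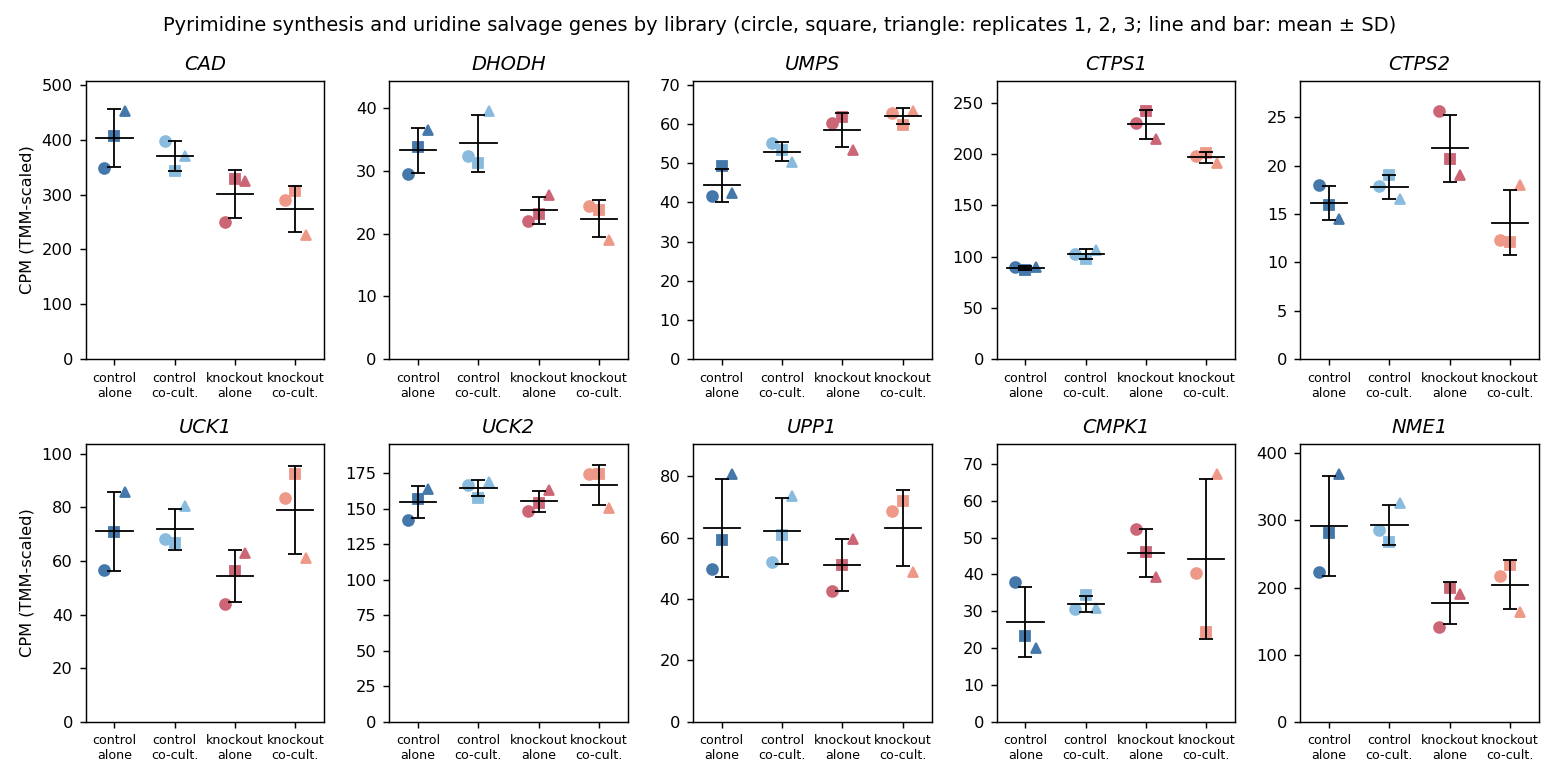
Expression of the 10 genes by library, in TMM-scaled CPM on an axis that starts at 0 in each panel; points are libraries (circle, square and triangle for replicates 1, 2 and 3) and lines with bars are the mean ± SD of 3. CTPS1 separates the control libraries (at most 107 CPM) from the knockout libraries (at least 191 CPM), while the 12 libraries of UCK2 lie between 142 and 175 CPM.

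Of the enzymes that make UMP, CAD (ENSG00000084774; chromosome 2, 27217390 to 27243943, GRCh38) stood at 349, 408 and 453 CPM in lone control replicates 1, 2 and 3. It stood at 251, 328 and 324 CPM in the lone knockout. The groups did not overlap, and the log2 fold change was -0.42 (SE 0.16, adjusted p = 0.0407, edgeR quasi-likelihood test with Benjamini-Hochberg adjustment). In co-culture CAD was at 398, 343 and 370 CPM in the control and at 290.4, 306 and 227 CPM in the knockout, again without overlap. That log2 difference was -0.43 (SE 0.16, adjusted p = 0.0422, edgeR). Both calls were near the threshold and were lost when any 1 of several libraries was left out. The log2 differences then stayed negative, at -0.52 to -0.31 alone and -0.55 to -0.31 in co-culture. Without control alone replicate 2 or 3, or knockout alone replicate 1 or 2, the adjusted p of the first was 0.0901, 0.106, 0.162 and 0.0525. Without control co-culture replicates 1, 2 or 3, or knockout co-culture replicate 1 or 3, that of the second was 0.123, 0.0562, 0.0579, 0.0548 and 0.143.

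DHODH (ENSG00000102967; chromosome 16, 72008588 to 72027664), the mitochondrial step, stood at 29.5, 33.8 and 36.6 CPM in the lone control. Its values in the lone knockout were 22.0, 23.1 and 26.2 CPM. All 3 knockout libraries were below all 3 controls, and the log2 fold change was -0.49 (SE 0.16, adjusted p = 0.0181, edgeR). In co-culture DHODH was at 32.4, 31.2 and 39.6 CPM in the control and 24.4, 23.7 and 19.0 CPM in the knockout. The separation held there too, with a log2 difference of -0.62 (SE 0.16, adjusted p = 0.00522, edgeR). The lone comparison lost its call without control alone replicate 2 or 3 or knockout alone replicate 1 or 2 (adjusted p = 0.0502, 0.0546, 0.0692 and 0.0577), and the co-cultured one kept it without any 1 of its 6 libraries.

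UMPS (ENSG00000114491; chromosome 3, 124730366 to 124749273), which closes the UMP pathway, differed in the other direction. It stood at 41.6, 49.2 and 42.4 CPM in the lone control and at 60.2, 61.7 and 53.5 CPM in the lone knockout. The groups did not overlap, and the log2 fold change was 0.40 (SE 0.12, adjusted p = 0.012, edgeR). In co-culture the control was at 55.2, 53.3 and 50.3 CPM and the knockout at 62.9, 59.7 and 63.4 CPM, a log2 difference of 0.23 (95% interval -0.03 to 0.48, adjusted p = 0.126, edgeR). Those groups did not overlap either, but the difference was not called. Without control alone replicate 3 or knockout alone replicate 2, the lone call was lost (adjusted p = 0.0575 and 0.055).

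Of the CTP synthases, CTPS1 (ENSG00000171793; chromosome 1, 40979335 to 41012565) is the form known to be needed by dividing lymphocytes. It stood at 90.1, 86.5 and 90.0 CPM in the lone control. The lone knockout had 231, 242 and 214 CPM. The log2 fold change was 1.37 (SE 0.11, adjusted p = 5.04e-07, edgeR). In co-culture CTPS1 was at 103, 97.2 and 107 CPM in the control against 198, 201 and 191 CPM in the knockout, a log2 difference of 0.94 (SE 0.11, adjusted p = 1.43e-05, edgeR). It was called in both comparisons without any 1 library and under every alternative tried. Within the knockout label the co-cultured libraries were all below the lone ones, with a log2 difference of -0.22 (95% interval -0.46 to 0.02, adjusted p = 0.196, edgeR). That difference was not called.

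CTPS2 (ENSG00000047230; chromosome X, 16588003 to 16712936) makes the same product from a lower transcript level. It stood at 18.0, 16.0 and 14.4 CPM in the lone control and 25.7, 20.7 and 19.0 CPM in the lone knockout, without overlap. The log2 difference of 0.43 was not called (SE 0.19, adjusted p = 0.0699, edgeR). The co-cultured knockout had 12.3, 12.05 and 17.9 CPM, all below the lone knockout, and the co-cultured control had 17.9, 19.0 and 16.6 CPM. The co-culture difference in the knockout was -0.63 on the log2 scale (95% interval -1.04 to -0.21, adjusted p = 0.0522, edgeR), just outside the threshold. Without knockout co-culture replicate 3, the library that was high, it was -0.84 with an adjusted p of 0.00357, a call.

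As a share of CTPS1 and CTPS2 counts per kb, CTPS1 made up 72.5% ± 2.19 in the lone control, 73.3% ± 2.26 in the co-cultured control, 83.5% ± 2.02 in the lone knockout and 87.0% ± 2.96 in the co-cultured knockout (SD, n = 3). Knockout and control libraries did not overlap in either setting, and the share was 10.9 percentage points higher in the lone knockout and 13.7 points higher in the co-cultured knockout. Each gave an exact two-sided permutation p of 0.1, the smallest that 3 against 3 libraries can give, and 0.2 after adjustment over 8 such tests. These shares use both genes' values above and are another view of the same counts. Their level depends on dividing by exon length. Without that division, CTPS1 made up 83.4 to 86.6% of counts over control libraries and 90.0 to 94.3% over knockout libraries.

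**Figure D2:**
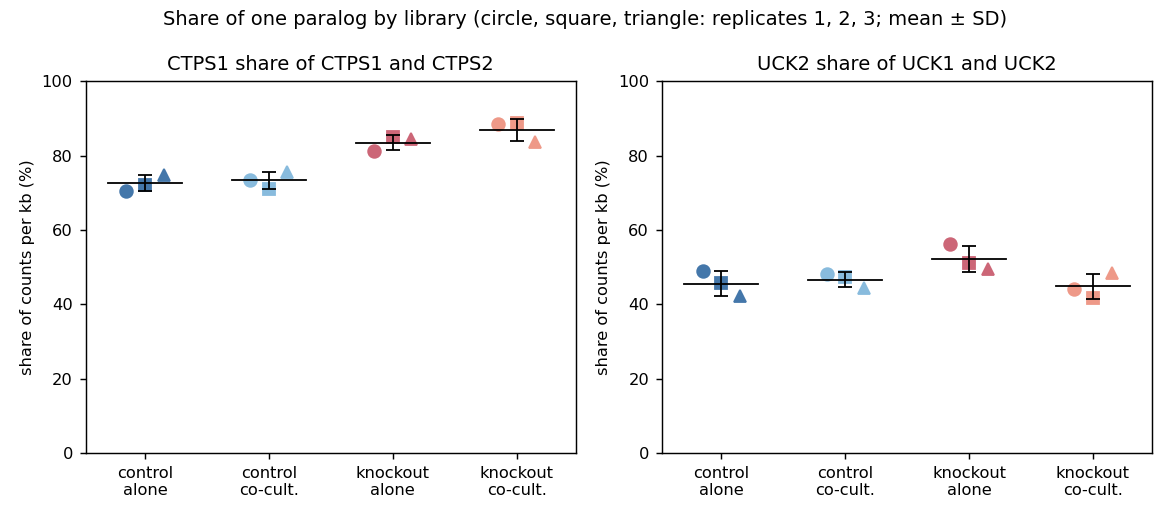
Share of one paralog in the summed counts per kb of its pair, in percent, for CTPS1 of CTPS1 and CTPS2 (left) and UCK2 of UCK1 and UCK2 (right); points are libraries, lines with bars the mean ± SD of 3. The CTPS1 share lies at 70.6 to 75.5% in the control libraries and 81.1 to 88.9% in the knockout libraries, while the UCK2 share is 49.6 to 56.3% in the lone knockout and 41.8 to 48.9% in the other 9 libraries. Shares are not corrected for transcript GC content.

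Uridine and cytidine are phosphorylated by UCK1 and UCK2, of which UCK2 is the form known for high expression in tumours. UCK2 (ENSG00000143179; chromosome 1, 165827531 to 165911618) stood at 142, 157 and 164 CPM in the lone control and 148, 154 and 163 CPM in the lone knockout. Co-cultured control libraries had 167, 158 and 169 CPM, and co-cultured knockout libraries 175, 175 and 151 CPM. The 4 groups overlapped, and the log2 difference between lone knockout and lone control was 0.01 with a 95% interval of -0.25 to 0.26. Of its 7067 exon bases, 225 lie on TMCO1 and 253 on AL358115.1, both on the opposite strand. Whether counting used strand is not given in the sources used here, so reads over those bases could not be assigned to 1 gene.

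UCK1 (ENSG00000130717; chromosome 9, 131523801 to 131531268) stood at 56.5, 70.8 and 85.8 CPM in the lone control and 43.8, 56.2 and 63.1 CPM in the lone knockout. The groups overlapped, with a log2 difference of -0.39 (SE 0.20, adjusted p = 0.111, edgeR), which was called without control alone replicate 1 (-0.53, adjusted p = 0.0403). Co-cultured control libraries had 68.0, 66.9 and 80.6 CPM. The co-cultured knockout had 83.6, 92.6 and 60.9 CPM, so that replicates 1 and 2 were above every lone knockout library and replicate 3 was not. The co-culture difference of 0.54 was not called (SE 0.20, adjusted p = 0.0911, edgeR). Without knockout co-culture replicate 3 it was 0.70 with an adjusted p of 0.0105.

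The UCK2 share of UCK1 and UCK2 counts per kb was 45.6% ± 3.40 in the lone control, 46.6% ± 2.06 in the co-cultured control, 52.3% ± 3.50 in the lone knockout and 44.8% ± 3.37 in the co-cultured knockout (SD, n = 3). It was 6.71 points higher in the lone knockout than in the lone control. The co-cultured minus lone difference in the knockout was -7.49 points. Neither pair of groups overlapped, each with an exact permutation p of 0.1 and 0.2 after adjustment. The level of this share depends on dividing by exon length. By counts not divided by length, UCK2 held the larger part in every library. The lowest was 65.4% (co-cultured knockout replicate 2) and the highest 77.2% (lone knockout replicate 1). Lone knockout libraries stayed apart on that scale, with a lowest value of 72.1% against 71.6% for lone control replicate 1. No share was corrected for transcript GC content, which was 58.0% for UCK1 and 49.7% for UCK2. Within every group the UCK2 share was lower in libraries whose deviations ran higher with GC. With the GC offsets described below, both genes' lone knockout against control differences changed sign. How much of the share differences goes with GC content was not tested.

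UPP1 (ENSG00000183696; chromosome 7, 48088628 to 48108733), which splits uridine to uracil and ribose 1-phosphate, stood at 49.8, 59.1 and 80.9 CPM in the lone control. Lone knockout libraries had 42.7, 51.0 and 59.5 CPM, and co-cultured ones 68.5, 72.1 and 48.8 CPM. The co-cultured control had 52.1, 60.7 and 73.5 CPM. Every group overlapped every other, and the log2 differences for lone knockout against control, and for co-cultured against lone knockout, were -0.31 (95% interval -0.77 to 0.15) and 0.31 (-0.15 to 0.77).

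CMPK1 (ENSG00000162368; chromosome 1, 47333797 to 47378839) phosphorylates UMP and CMP, and so receives the product of both routes. It stood at 37.9, 23.3 and 20.1 CPM in the lone control and 52.3, 46.2 and 39.3 CPM in the lone knockout. Although the groups did not overlap, the log2 difference of 0.76 was not called (SE 0.31, adjusted p = 0.0526, edgeR), and it was 1.08 with an adjusted p of 0.014 without control alone replicate 1, the highest control. The co-cultured knockout spread from 40.5 and 24.5 to 67.4 CPM in replicates 1, 2 and 3, around a co-cultured control of 30.5, 34.4 and 30.9 CPM. CMPK1 had the lowest transcript GC content of the 10, 37.8%.

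NME1 (ENSG00000239672; chromosome 17, 51153536 to 51162428) moves phosphate from ATP to the other nucleoside diphosphates. It stood at 222, 281 and 370 CPM in the lone control and at 141, 199 and 190 CPM in the lone knockout, without overlap. The log2 fold change was -0.72 (SE 0.20, adjusted p = 0.00918, edgeR), and without any 1 library its adjusted p was at most 0.0452. In co-culture the control had 285, 268 and 326 CPM and the knockout 217, 233 and 163 CPM, a log2 difference of -0.52 (SE 0.20, adjusted p = 0.0499, edgeR). That call was lost without control co-culture replicate 1, 2 or 3 or knockout co-culture replicate 1 or 3 (adjusted p = 0.0873, 0.0657, 0.113, 0.0675 and 0.141). NME1 shares 638 of its 3438 exon bases with the readthrough gene NME1-NME2, which had at most 9.78 CPM in any library. NME1-NME2 was itself lower in the lone knockout, at 0.690 against 7.54 CPM in the lone control (adjusted p = 4.83e-06, edgeR). How reads over the shared bases were counted is not given in the sources used here. The level of NME1 is therefore uncertain by an amount that is not known.

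Read together, 5 of 10 members were called between lone knockout and lone control, 2 higher and 3 lower, where 56.6% of all genes tested were called, 28% higher and 28.6% lower. At an unadjusted p under 0.05 there were 7 of 10 members against 61.8% of all genes, and 7 of 10 did not overlap between groups against 65.2%. The members' median log2 difference was -0.15, against 0.09 over all genes. The count of members called was thus near the background, and ranged from 2 to 7 when 1 library was left out. It was 2 without control alone replicate 3 or knockout alone replicate 2, where 46.4% and 48.7% of all genes were called. It was 3 without control alone replicate 2 or knockout alone replicate 1 (47.1% and 46.4% of all genes). Without control alone replicate 1 it was 7 (56.9% of all genes). With no filter on low counts, which tests more genes, the calls of CAD, DHODH and UMPS were lost (adjusted p = 0.0859, 0.0681 and 0.162, edgeR) and CMPK1 was called (adjusted p = 0.00167). Of all genes tested without that filter, 26.4% were called.

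**Figure D3:**
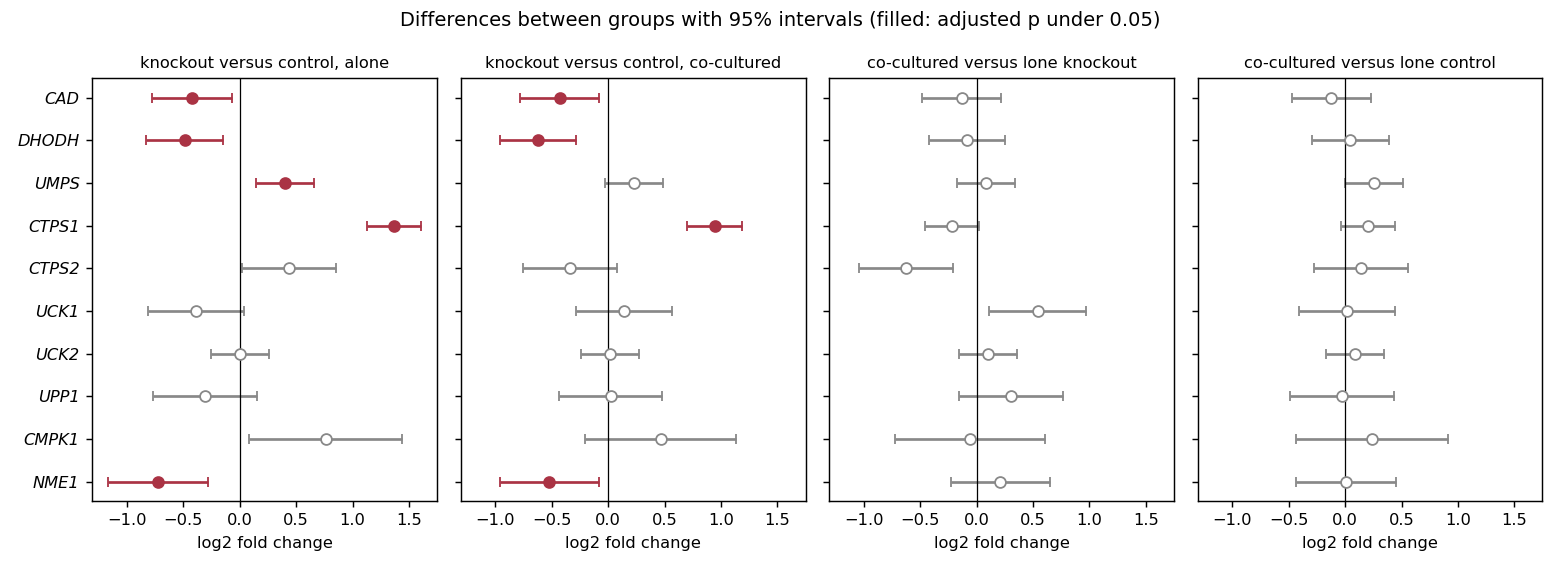
Log2 fold changes of the 10 genes in the 4 comparisons between groups, with 95% intervals from edgeR; filled points have an adjusted p under 0.05. CTPS1 lies farthest from 0 in both knockout against control comparisons (1.37 and 0.94), and no gene is filled in either co-culture comparison.

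The series describes co-culture with parental A549 as restoring the growth of knockout cells. Between co-cultured and lone knockout, edgeR called 0 of 10 members, where it called 11.4% of all genes, 5.97% higher and 5.4% lower. At an unadjusted p under 0.05 there were 2 members, CTPS2 and UCK1, against 30.1% of all genes. DESeq2 called 1, CTPS2, where it called 20% of all genes. The groups of 2 members, CTPS1 and CTPS2, did not overlap, against 31.5% of all genes. The median log2 difference was 0.01 over the members and 0.01 over all genes. Leaving out knockout co-culture replicate 3 brought the number called to 2, CTPS2 and UCK1, as given above, where 33.4% of all genes tested were then called. In RNA from a whole culture, fewer cells of a kind and less RNA per cell cannot be told apart, and any RNA of partner cells would be included.

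Between knockout and control in co-culture, 4 of 10 members were called, CTPS1 higher and CAD, DHODH and NME1 lower. Over all genes 49.4% were called, 24.1% higher and 25.3% lower. At an unadjusted p under 0.05 there were 4 of 10 members against 55.2% of all genes, and 5 of 10 did not overlap against 55.4%. Without control co-culture replicate 1, 2 or 3, or knockout co-culture replicate 1, the number called was 2. Of all genes, 41.7%, 42.4%, 44.1% and 41.7% were then called. With no filter CAD, DHODH and NME1 lost their calls (adjusted p = 0.254, 0.057 and 0.109, edgeR) and CMPK1 gained one (adjusted p = 0.0398, edgeR). In DESeq2 CAD and NME1 lost theirs (adjusted p = 0.102 and 0.101). Of all genes, 23.3% were called with no filter and 50.7% by DESeq2. This comparison shares its knockout libraries with the preceding one. It also gave CTPS2 a log2 difference of -0.34 (adjusted p = 0.166) and CMPK1 one of 0.47 (adjusted p = 0.232, both edgeR), of which the first was called without knockout co-culture replicate 3 (-0.54, adjusted p = 0.0231) and the second without knockout co-culture replicate 2 (0.73, adjusted p = 0.0345).

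Co-culture of the control changed 0 of 10 members in edgeR, and 0% of all genes were called in either direction. No member had an unadjusted p under 0.05, against 3.22% of all genes, DESeq2 called none of the 10, and 2 of 10 did not overlap against 7.39%. Those were UMPS, with a log2 difference of 0.25 (95% interval -0.0028 to 0.51), and CTPS1, with 0.20 (-0.04 to 0.44). For the other members the differences lay between -0.12 for CAD and 0.24 for CMPK1.

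The co-culture difference in the knockout minus that in the control was called for 0 of 10 members in edgeR and in DESeq2. Over all genes 1.8% were called in edgeR, 1.51% higher and 0.286% lower, and 6.06% in DESeq2. At an unadjusted p under 0.05 there were 2 members, against 18.7% of all genes: CTPS2 at -0.77 (SE 0.27, adjusted p = 0.179, edgeR) and CTPS1 at -0.42 (SE 0.16, adjusted p = 0.194, edgeR). Without knockout co-culture replicate 3, CTPS2 was at -0.98 with an adjusted p of 0.0144, where 21.3% of all genes were then called.

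Transcript GC content moved with these comparisons. Over 16505 genes with a value, Spearman's rho between log2 fold change and GC was -0.386 for lone knockout against control and 0.435 for co-cultured against lone knockout (a description over genes of the same libraries, with no p). Member transcripts ran from 37.8% GC in CMPK1 and 43.2% in CTPS1 to 57.7% in CAD and 58.0% in UCK1, around a median of 49.7% over all tested genes. When each library's trend with GC was removed as an offset, edgeR called 3 members between lone knockout and lone control, where it called 62.8% of all genes. These were CTPS1 at a log2 difference of 0.87 (adjusted p = 0.00106), DHODH at -0.40 (adjusted p = 0.00522) and NME1 at -0.98 (adjusted p = 0.00269), while CAD moved to -0.06 (adjusted p = 0.625) and UMPS to 0.15 (adjusted p = 0.154). Between co-cultured and lone knockout the same offsets gave 4 calls in edgeR, where 28.9% of all genes were called. They were CMPK1 at 0.47 (adjusted p = 0.00514), UCK1 at 0.34 (adjusted p = 0.0163), CAD at -0.33 (adjusted p = 0.0162) and CTPS2 at -0.39 (adjusted p = 0.0187), and CTPS1 turned from -0.22 to 0.21. Between knockout and control in co-culture they gave 6 calls, against 62.4% of all genes: the 4 of the fit without offsets, CTPS2 at -0.39 (adjusted p = 0.0069, edgeR) and CMPK1 at 0.38 (adjusted p = 0.0063, edgeR). Part of a true change that runs with GC content would be removed by the same step, and how much was not tested.

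**Figure D4:**
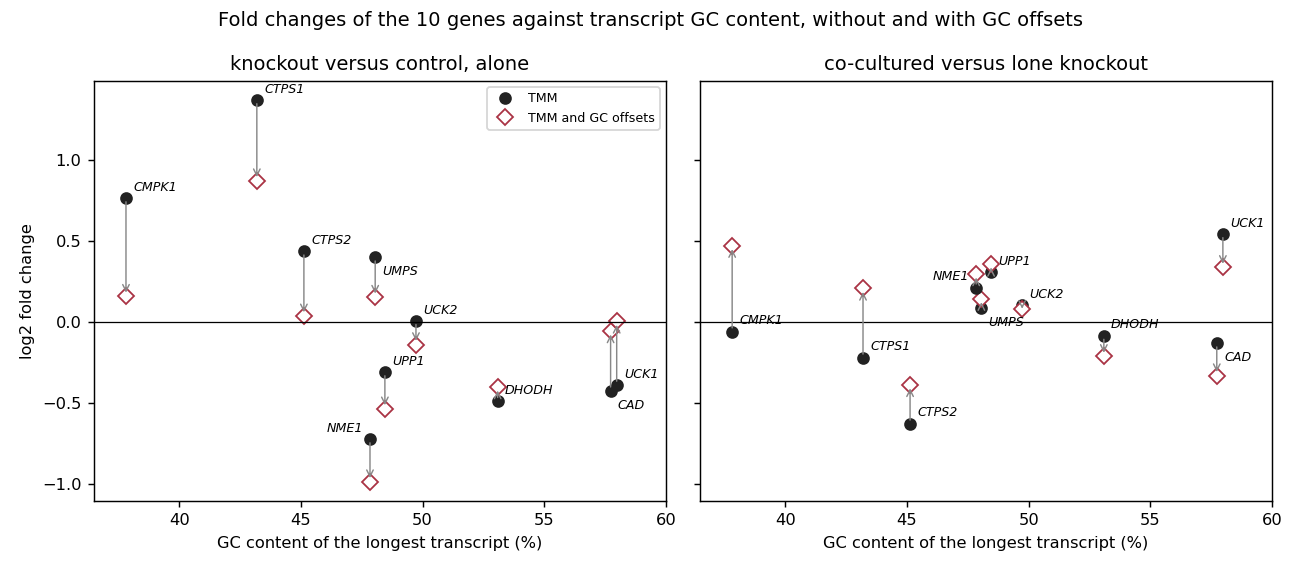
Log2 fold change of each of the 10 genes against the GC content of its longest transcript (%), without (black circles) and with (open diamonds) offsets for GC content; arrows join the values of a gene. In the left panel CTPS1 moves from 1.37 to 0.87 and CAD from -0.42 to -0.06, and in the right panel CTPS1 crosses 0, from -0.22 to 0.21.

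Around the 10 members, 43 other genes of pyrimidine metabolism were followed in 4 lists, and 39 of them could be tested. Between lone knockout and lone control 23 of 39 (59%) were called, 14 higher and 9 lower, against 56.6% of all genes, 28% higher and 28.6% lower, which is also the background of the counts by list. Of 11 genes for salvage and breakdown of uridine and cytidine, 3 rose and 3 fell. CDA, which deaminates cytidine to uridine, rose 3.99-fold, from 22.3 to 88.8 CPM (adjusted p = 3.26e-06, edgeR), and NT5E, an ecto-nucleotidase that releases nucleosides from monophosphates, rose by 1.83 on the log2 scale (adjusted p = 1.11e-05, edgeR). Of 10 other nucleotide kinases, 2 rose and 3 fell, with NME3 at -1.77 (adjusted p = 0.000265, edgeR), and at -0.94 with GC offsets. NME5 averaged 0.606 CPM over lone control libraries and had no count in any lone knockout library, at least 3.96-fold lower against a floor of 3 counts per library, which covers counting error only.

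Of 9 genes that supply glutamine, aspartate, carbamoyl phosphate and PRPP, 4 rose and 2 fell in the same comparison. GLUL, which makes glutamine, fell from 302 to 31.0 CPM (log2 -3.29, adjusted p = 4.09e-09, edgeR), and GOT1, the cytosolic aspartate aminotransferase, had a log2 fold change of -1.45 (adjusted p = 1.59e-05, edgeR). Of 9 enzymes that use UTP, CTP or a sugar nucleotide made from UTP, 5 rose and 1 fell. Among them UGDH, which makes UDP-glucuronate from UDP-glucose, rose by 1.41 on the log2 scale (adjusted p = 0.000343, edgeR). PCYT1A, which uses CTP for phosphatidylcholine, rose by 0.84 (adjusted p = 0.000425, edgeR). With GC offsets UGDH and PCYT1A stood at 0.86 and 0.53. The 6 of 9 called in each of these lists are 66.7%, near the 56.6% of all genes.

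Between co-cultured and lone knockout 3 of the 39 (7.69%) were called, against 11.4% of all genes. GLUL rose from 29.5, 32.6 and 30.9 CPM to 78.5, 83.1 and 74.0 CPM (log2 1.34, adjusted p = 0.000146, edgeR), and stayed called without any 1 library. CPS1, a mitochondrial carbamoyl phosphate synthetase, had a log2 fold change of -0.98 (adjusted p = 0.0195, edgeR), and CDS1, which uses CTP for phosphatidylinositol lipids, one of -1.23 (adjusted p = 0.0379, edgeR). CPS1 lost its call without knockout alone replicate 1 or 2 or knockout co-culture replicate 1 or 2 (adjusted p = 0.0857, 0.0659, 0.108 and 0.0759), and CDS1 without each of the 6 libraries except knockout co-culture replicate 3 (adjusted p up to 0.153). With library size scaling and with only the groups compared, CPS1 (adjusted p = 0.0618 and 0.0909) and CDS1 (0.0785 and 0.0852) also lost theirs, as CDS1 did with the replicate number as a block (0.0653). UGDH stood at -0.64 (adjusted p = 0.101), CDA at 0.49 (adjusted p = 0.11), AK4 at -0.40 (adjusted p = 0.184), UPRT at 0.34 (adjusted p = 0.298) and NME6 at 0.15 (adjusted p = 0.505, all edgeR), none of them called.

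**Figure D5:**
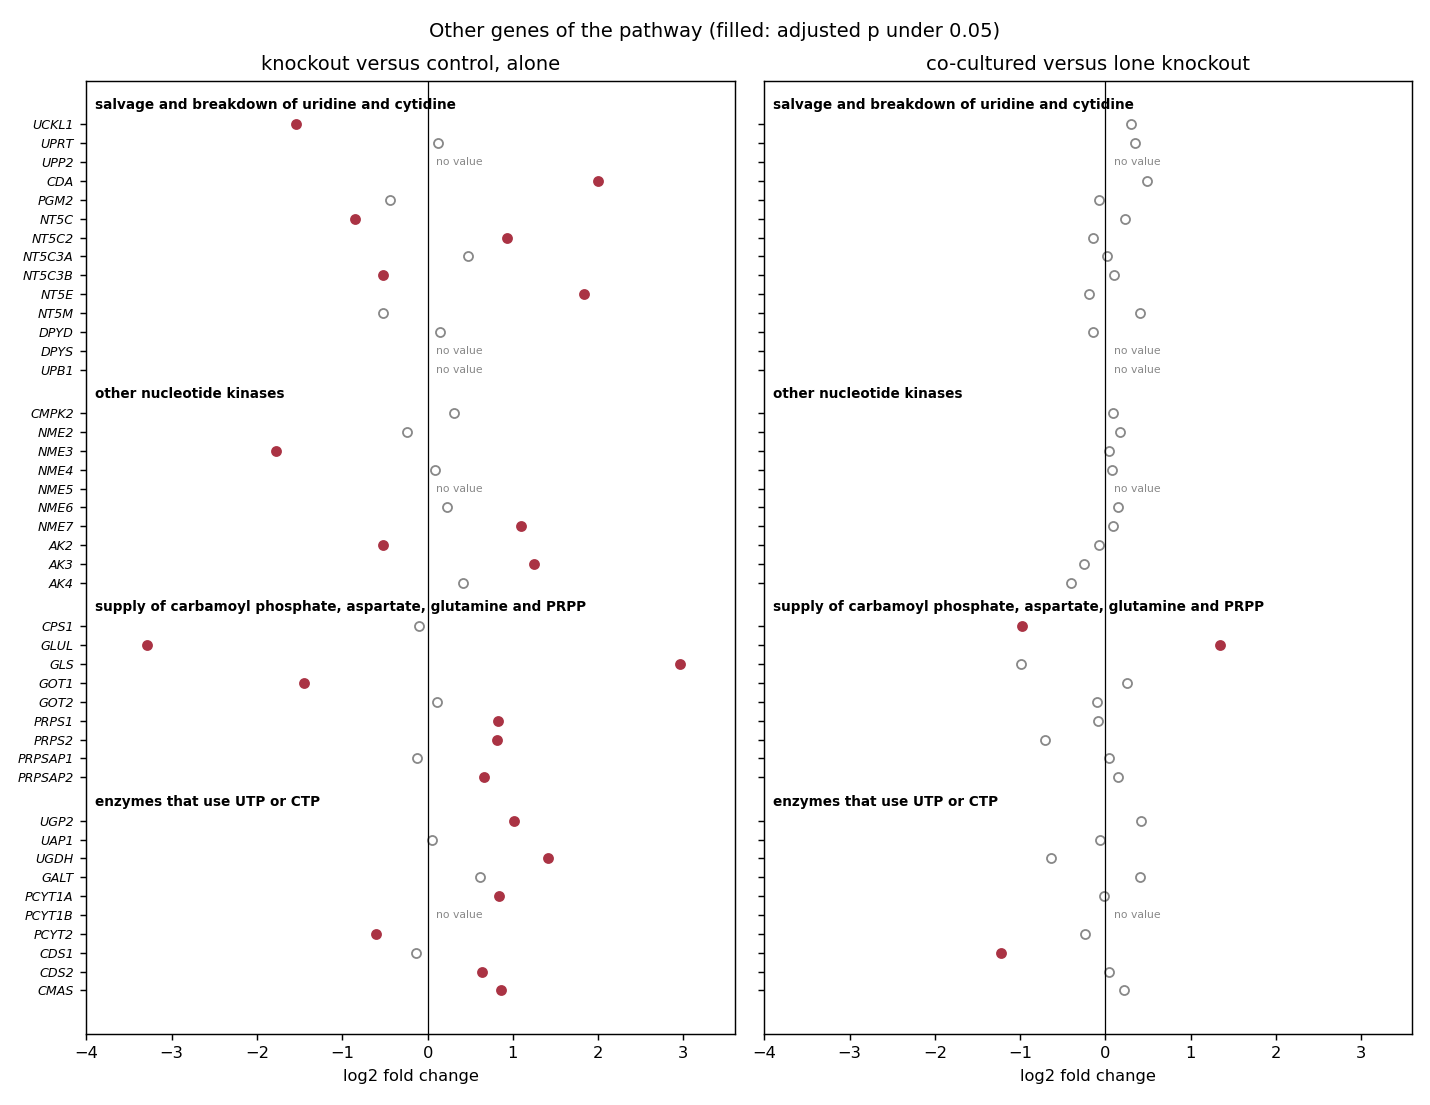
Log2 fold change of 43 other pyrimidine genes in 4 lists, for lone knockout against control (left) and co-cultured against lone knockout (right); filled points have an adjusted p under 0.05 in edgeR, and "no value" marks 4 genes that were not tested and NME5, which had no count in the lone knockout. Filled points number 22 on the left, beside NME5, and 3 on the right.

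Between knockout and control in co-culture 23 of the 39 (59%) were called, 14 higher and 9 lower, against 49.4% of all genes, 24.1% higher and 25.3% lower. The co-cultured control differed from the lone control in none of them (edgeR, with 2 at an unadjusted p under 0.05 and 0 called by DESeq2).

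Over the 12 libraries, the gene whose log2 CPM ran most like each member was sought among 10260 genes. Pearson's r was 0.994 for CTPS1 with NEFL, 0.990 for NME1 with PSMB5, 0.986 for UCK1 with SSR4 and 0.984 for UPP1 with ASPSCR1. It was 0.976 for CAD with DENND1A and for CTPS2 with SETD5, 0.975 for CMPK1 with CTNNAL1, 0.974 for DHODH with PRMT7, 0.966 for UMPS with PSMA5 and 0.937 for UCK2 with YKT6. These values describe 12 libraries that share 4 groups, depth and the GC trends above, and carry no test.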

How the data were processed

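Expression was measured by RNA sequencing of total RNA (miRNeasy isolation, NEBNext Ultra libraries, per the labels' protocols) in 12 libraries labelled A549, 4 groups of 3. The authors deposited whole-number counts per Ensembl gene, used as deposited; every column of the table was matched to a sample by name. The submitters' processing notes list GRCh38/hg38, FastQC, STAR 2.7.9a, featureCounts, R 4.2.1 and DESeq2 1.36.0 without roles; the annotation and the strand setting are not given in the sources used here. Positions, exon lengths and GC content come from GENCODE 29 (GRCh38), matched by identifier, and promoter sequences from RefSeq (GRCh38.p14).

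The analysis used edgeR 4.0.16 under R 4.3.3: filterByExpr, TMM scaling, 1 model of 4 group means over all 12 libraries, and the robust quasi-likelihood F-test. P-values were adjusted by Benjamini-Hochberg over 16768 genes within each of 5 comparisons, with calls at an adjusted p under 0.05. The biological coefficient of variation was 22.1%. Intervals are 95% intervals of the fit. Shares were tested by exact two-sided permutation. Replicate pairs differed by 8.64 to 132 in chi-square per gene, so no library was a second sequencing of another in its group. Whether libraries shared RNA or a culture cannot be told from these values.

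Alternatives were library size scaling, no filter, DESeq2 1.42.0, only the groups compared, GC offsets (lowess, span 0.3), the replicate number as a block, both together, and leaving out each library. In counts simulated for the lone comparison (16768 genes), 39.4% of 99 genes changed by 1 on the log2 scale and 89% of 100 changed by 2 were recovered, with 4 unchanged genes called. Far fewer genes were changed there than the 56.6% called in the real comparison, and the libraries' GC trends were not simulated. These rates check that the code runs rightly and do not give the power or error of the real test.

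The members and lists were chosen with earlier results of these data known. Named genes are the 10 members, TYMS, the 9p21 genes, the 2 genes of smallest p per list in each of the first 2 comparisons, and the nearest gene by correlation (mean of at least 5 CPM, prior count 2). EPCAM, KRT8, KRT18, KRT19, CDH1, GPX2 and marker sums were chosen as label checks.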

Additional observations from a re-analysis of the deposited data

Results flagged for a closer look

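GLUL, glutamine synthetase, differed between the labels in its response to co-culture. Its co-culture difference in the knockout minus that in the control was 1.44 on the log2 scale (SE 0.20, adjusted p = 0.00324, edgeR interaction term). Lone and co-cultured control libraries had 244, 324 and 339 and 308, 262 and 279 CPM. All 3 co-cultured knockout libraries were above all 3 lone ones, and all stayed below the lowest control library. Leaving out each of the 12 libraries gave 1.34 to 1.57, with an adjusted p of at most 0.0171.

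TYMS also differed between the labels in its co-culture difference, by -0.89 on the log2 scale (SE 0.15, adjusted p = 0.0107, edgeR interaction term). Its log2 fold change from lone to co-cultured knockout was -0.92 (adjusted p = 0.000307, edgeR), while the control groups had means of 95.4 and 93.4 CPM. With no filter on low counts the interaction was -0.78 with an adjusted p of 0.103.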

How the results depend on the processing

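The number of members called between lone knockout and lone control was 5. It was 3 with no filter (CAD, DHODH and UMPS lost, CMPK1 gained), 3 with GC offsets and 3 with these and the replicate block. Of all genes, 56.6%, 26.4%, 62.8% and 61% were called in these settings. Between co-cultured and lone knockout the number of members called was 0. It was 1 with library size scaling, 1 with no filter and 1 with DESeq2. With GC offsets it was 4, and also 4 with the replicate block and GC offsets. The shares of all genes called were 11.4%, 8.47%, 8.75%, 20%, 28.9% and 24.7%, in the same order. Between knockout and control in co-culture the number of members called was 4. It was 6 with GC offsets, with or without the block (CTPS2 and CMPK1 gained). It was 2 with no filter (CAD, DHODH and NME1 lost, CMPK1 gained), with only the groups compared, with DESeq2 and with the replicate block. Under that block CAD and NME1 had adjusted p-values of 0.0634 and 0.0618 (edgeR). Of all genes 49.4% were called, and 62.4% with GC offsets and 60.5% with the block added. The shares were 23.3% with no filter, 43.3% with only the groups compared, 50.7% with DESeq2 and 46.4% with the replicate block. Of the 39 wider genes, those called between co-cultured and lone knockout numbered 3. They numbered 1 with library size scaling, 5 with no filter, 13 with GC offsets and 10 with the replicate block and GC offsets. With only the groups compared they numbered 1, and with DESeq2 5. The shares of all genes are those given above for this comparison, and 4.22% with only the groups compared. In the interaction the wider genes called numbered 1, and 3 with no filter, 3 with GC offsets and 3 with the replicate block and GC offsets. Of all genes, 1.8%, 3.52%, 8.36% and 5.21% were called in these settings. Apart from what the GC offsets and the leaving out of libraries show, the cause of these changes was not tested.

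Leaving out 1 library at a time gave 2 to 7 members called in the lone comparison, 0 to 2 in the co-culture of the knockout, 2 to 5 in the co-cultured comparison and 0 to 1 in the interaction. For the wider genes the ranges were 18 to 24, 1 to 7, 18 to 23 and 1 to 7, the 7 of the interaction without knockout co-culture replicate 3. Over all genes the shares called ran from 46.4 to 56.9%, 3.13 to 33.4%, 41.7 to 52.2% and 0.695 to 21.3%. The CTPS1 share differed by 0.76 points between the control groups, with a range of -0.35 to 1.93, and the UCK2 share by 1.03 points, with a range of -0.72 to 2.68.

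Some same-numbered libraries deviated together and others did not. Their correlations for numbers 1, 2 and 3 were 0.491, -0.024 and 0.378 in the lone comparison and 0.189, -0.051 and 0.412 between the control groups, and ran from -0.540 to 0.079 in the comparisons with the co-cultured knockout. Since not every pair was above 0.1 in any comparison, and no label ties the numbers to a shared culture or day, they were not taken as pairs. With the replicate block alone CAD also lost its lone call (adjusted p = 0.0603).

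Of the members' single values under all alternatives, 9 of 130 in the lone comparison, 11 of 130 in the co-culture of the knockout, 11 of 130 in the co-cultured comparison, 14 of 130 in the control and 18 of 180 in the interaction changed sign. Those of lone knockout against control were UCK1 with GC offsets (0.0043, and 0.0042 with the block) and UCK2 with no filter (-0.0075), GC offsets (-0.14, and -0.14 with the block), only the groups compared (-0.0010) and DESeq2 (-0.049). For co-cultured against lone knockout they were CAD (0.0017), DHODH (0.046) and CMPK1 (0.046) with no filter, and with GC offsets CTPS1 (0.21, and 0.21 with the block) and CMPK1 (0.47, and 0.47 with the block). AK4, of the wider lists, also changed sign there (0.051, and 0.045 with the block). For knockout against control in co-culture they were UCK2 (-0.084, and -0.083 with the block) and UPP1 (-0.076, and -0.035 with the block) with GC offsets. For the control they were UCK1 (-0.012) and NME1 (-0.020) with DESeq2, UPP1 with library size scaling (0.056), and NME1 with GC offsets (-0.083, and -0.064 with the block). In the interaction they were CAD with no filter (0.10) and DESeq2 (0.092), UCK2 with library size scaling (-0.12), and with GC offsets CTPS1 (0.12, and 0.11 with the block) and CMPK1 (0.22, and 0.22 with the block).

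Values that changed sign without 1 library had these ranges: UCK2 -0.056 to 0.037 in the lone comparison; DHODH -0.16 to 0.025 and CMPK1 -0.50 to 0.23 in the co-culture of the knockout. In the co-cultured comparison UCK1 ran from -0.024 to 0.30, UCK2 from -0.048 to 0.090 and UPP1 from -0.12 to 0.18. In the control DHODH ran from -0.069 to 0.12, UCK1 from -0.12 to 0.17, UPP1 from -0.17 to 0.19 and NME1 from -0.15 to 0.21. In the interaction CAD ran from -0.12 to 0.12, UCK2 from -0.042 to 0.085 and NME1 from -0.016 to 0.37.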
